A study of Mus musculus with 12 samples.

Results

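S100 proteins are small calcium-binding proteins of the EF-hand type that act as dimers inside and outside cells. Genes for 10 of them (*S100a1*, *S100a4*, *S100a6*, *S100a8*, *S100a9*, *S100a10*, *S100a11*, *S100a13*, *S100a16* and *S100b*) were taken by symbol from the gene count and transcript abundance matrices of mouse hearts, which list 53801 genes. In myeloid cells S100A8 and S100A9 form calprotectin, a major cytosolic protein of neutrophils that acts as an alarmin once released. In cardiomyocytes S100A1 binds proteins of calcium cycling and of the sarcomere. The other members are found in many stromal and epithelial cells, where several of them bind annexins, and S100B is best known from glia and Schwann cells and is also made by adipocytes.

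Whole hearts of adult male C57BL/6N mice were sequenced in 3 groups of 4, with no gene deletion or drug in any group. Acute myocardial infarction (AMI) was induced by ligation of the left anterior descending coronary artery, and hearts were taken on day 1 (day 1 AMI) or on day 7 (day 7 AMI), while sham mice had the operation without the infarct. The labels give no day for the sham hearts, which were the reference for both days. Against sham, the infarct and the time since the operation therefore cannot be told apart fully. Whole-heart RNA mixes infarct with uninjured muscle, and fewer cells of a type and less RNA per cell cannot be told apart in it. Each library held 23204551 to 32166517 counts, and all 10 genes passed the filter on low counts, as did 15306 genes in all. Summed transcripts of 9 cardiomyocyte markers were 68187 to 84311 CPM (counts scaled to library size) across the sham hearts, 44784 to 56212 on day 1 and 38908 to 45893 on day 7, so that cardiomyocyte transcripts were abundant in every library. Blood differed between hearts of one group: 7 erythroid genes summed to 1181 CPM in sham heart 1 and 4464 CPM in sham heart 2, against 491 and 577 CPM in sham hearts 3 and 4.

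Of the 10 genes, 9 lie on chromosome 3 (GRCm38, GENCODE M21), and *S100b* lies alone on chromosome 10. Of these, 7 fall within 184.7 kb, in the order *S100a1* (chr3:90511034-90514392, minus strand), *S100a13* (chr3:90514435-90524581, plus), *S100a16*, *S100a4* (chr3:90603771-90606045, plus), *S100a6*, *S100a8* (chr3:90668978-90670035, plus) and *S100a9* (chr3:90692632-90695721, minus), with *S100a11* and *S100a10* a further 2824.8 kb away. By their GENCODE starts, *S100a1* and *S100a13* begin 43 bases apart and run in opposite directions. *S100a8* and *S100a9* run towards each other with 22597 bases between their 3′ ends. RefSeq (GRCm38.p6) gave a promoter, here the 250 bases before and 50 after the RefSeq start, for 9 of the 10 genes, *S100a10* being the one without. For some genes, *S100a1* and *S100a8* among them, the RefSeq start differs from the GENCODE start. The promoters printed here are those of the pair that moved together (*S100a8*, *S100a9*), of the cardiomyocyte gene whose promoter window shares 204 bases with that of *S100a13* (*S100a1*) and of the member with the largest fold change on day 1 in the fit of all 12 libraries (*S100a4*). They read 5′ to 3′ on the strand of the gene, and capitals mark the motifs TATAAA (core of the TATA box), TGANTCA (AP-1), TTGCNNAA (C/EBP) and GAGGAAGT (PU.1), searched on both strands, so that some appear as their reverse complement.
S100a8, chr3:90668821-90669120, plus: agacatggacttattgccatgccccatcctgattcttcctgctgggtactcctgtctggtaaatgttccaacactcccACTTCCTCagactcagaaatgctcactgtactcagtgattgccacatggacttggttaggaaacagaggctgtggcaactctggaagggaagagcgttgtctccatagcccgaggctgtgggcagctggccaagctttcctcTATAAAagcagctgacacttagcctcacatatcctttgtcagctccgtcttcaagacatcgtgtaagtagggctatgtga
S100a9, chr3:90695672-90695971, minus: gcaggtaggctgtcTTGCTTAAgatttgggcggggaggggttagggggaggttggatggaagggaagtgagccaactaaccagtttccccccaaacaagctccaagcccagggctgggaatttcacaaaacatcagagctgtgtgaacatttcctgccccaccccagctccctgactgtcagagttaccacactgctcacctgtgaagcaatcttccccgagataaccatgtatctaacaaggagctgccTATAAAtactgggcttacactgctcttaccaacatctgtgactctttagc
S100a1, chr3:90514281-90514580, minus: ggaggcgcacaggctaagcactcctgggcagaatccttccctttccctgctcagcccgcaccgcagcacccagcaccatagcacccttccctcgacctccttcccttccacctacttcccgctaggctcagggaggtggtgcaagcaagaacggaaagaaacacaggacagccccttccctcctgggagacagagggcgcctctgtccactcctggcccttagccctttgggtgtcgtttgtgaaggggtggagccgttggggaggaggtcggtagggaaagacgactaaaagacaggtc
S100a4, chr3:90603520-90603819, plus: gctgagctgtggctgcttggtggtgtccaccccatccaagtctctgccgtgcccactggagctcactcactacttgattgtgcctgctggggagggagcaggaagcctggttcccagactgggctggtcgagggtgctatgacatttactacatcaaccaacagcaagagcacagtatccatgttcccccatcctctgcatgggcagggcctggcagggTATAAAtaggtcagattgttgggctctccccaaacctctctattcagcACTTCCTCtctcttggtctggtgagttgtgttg

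TATAAA stood in the windows of 3 of the 9 genes (*S100a8*, *S100a9* and *S100a4*), against 13.6% of all 32851 windows of that length. In *S100a8* and *S100a4* it began 30 and 31 bases before the RefSeq start, and in *S100a9* it coincided with the RefSeq start. GAGGAAGT stood in 2 windows, those of *S100a8* and *S100a4* (3.2% of all windows), and TTGCNNAA in that of *S100a9* (10.8%). TGANTCA stood in the window of *S100a11*, with 2 copies, and in the window at a downstream start of *S100a16* (chr3:90540896-90541195). The window at the upstream start of *S100a16* (chr3:90537004-90537303) held none. Of all windows, 7.81% held TGANTCA. The window of *S100a1* held none of these letters, and no overlap between motifs was seen in the windows shown.

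Levels of the genes can be compared only per length, in TPM, which scales reads to transcript length and library size. *S100a1* was the most abundant member in every group, with a mean level of 1345 ± 58.3 TPM in sham, 1030 ± 74.3 TPM in day 1 AMI and 1253 ± 142 TPM in day 7 AMI (SD, n = 4). *S100a11* came next by its mean in each group, and its range over hearts did not touch that of *S100a1*. In sham and day 1 AMI it overlapped the range of *S100a6*, which exceeded *S100a11* by a ratio of 1.26 in day 1 AMI heart 4. Next by mean, *S100a6* and *S100a10* had overlapping ranges in all 3 groups. *S100a16* and *S100a13* were the fifth and sixth in sham, at 57 ± 4.46 and 45.5 ± 8.58 TPM, without overlap. From *S100a13* down to *S100a4* in sham, with *S100a8* and *S100a9* between them, each neighbour overlapped the next, since the myeloid pair ranged from 1.47 to 116 TPM. *S100b* was the lowest member everywhere, at 0.523 ± 0.0846 TPM in sham, 0.798 ± 0.259 on day 1 and 1.47 ± 0.307 on day 7, and its range lay below that of every other member.

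Every heart after AMI had a smaller share of *S100a1* among the 10 genes than every sham heart. *S100a1* held 67% to 82.7% of the summed TPM of the 10 genes in sham hearts, 37.5% to 54.5% in day 1 AMI hearts and 42.2% to 59.2% in day 7 AMI hearts. The sum itself was 1685 to 1999 TPM in sham, 2049 to 2639 TPM on day 1 and 2277 to 2815 TPM on day 7. On day 7 *S100a11* alone held 468 to 822 TPM, against 79.5 to 139 TPM in sham.

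**Figure D1:**
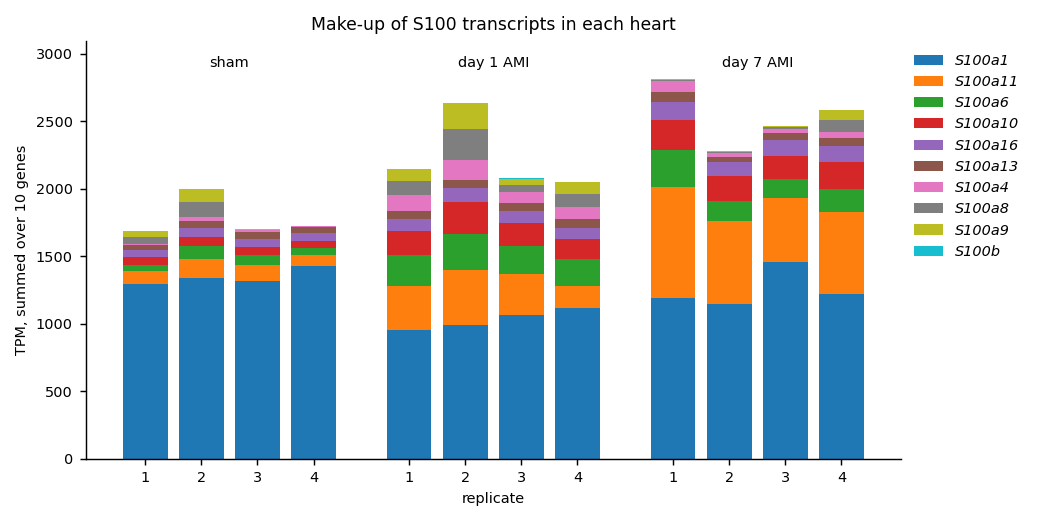
Stacked TPM (vertical axis) of the 10 S100 genes in each of the 12 hearts, with the replicate number on the horizontal axis and the groups side by side. *S100a1* fills 67% to 82.7% of each sham bar and 37.5% to 59.2% of each bar after AMI, and the *S100a11* segment is tallest in day 7 AMI.

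Differences between groups were tested on the counts with edgeR's quasi-likelihood test, one fit of all 12 libraries on CPM scaled by TMM, and adjusted over all 15306 genes (FDR). A gene is said to rise or fall where its FDR is below 0.05, and is called where the fold change (FC) is also at least 2. On day 1 AMI against sham 4 of the 10 members were called higher (*S100a4*, *S100a6*, *S100a10* and *S100a11*) and 0 lower, with 7.79% of all genes tested called higher and 2.98% lower. On day 7 AMI against sham 3 members were called higher (*S100a4*, *S100a10* and *S100a11*; 15.3% of all genes) and 0 lower (5.88%). Between the days 2 members were called lower on day 7 (*S100a4* and *S100a9*; 2.69% of all genes) and 0 higher (8.55%). By the FDR alone 5 members rose and 1 fell on day 1 (22% and 19.9% of all genes), 6 rose and 1 fell on day 7 (30.9% and 28.4%), and 1 rose and 3 fell from day 1 to day 7 (24.2% and 22.8%). The median log2 fold change of the members was 1.21 on day 1 and 0.66 on day 7 against sham, beside −0.01 and 0.03 over all genes tested. Where edgeR called 0 members, DESeq2 also called 0, and at an unadjusted p under 0.05 there were 1 member lower on day 1, 1 lower on day 7 (*S100a1* both times) and 2 higher on day 7 than on day 1 (*S100a11* and *S100b*). The 3 comparisons share groups, so that they are not independent of each other.

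**Figure D2:**
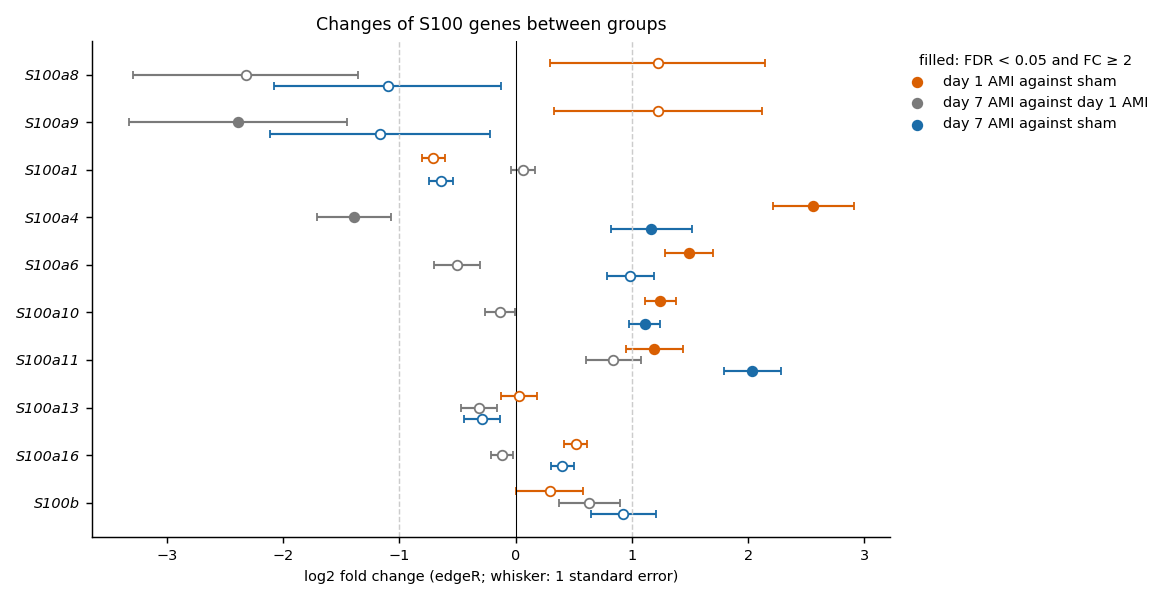
Log2 fold change (horizontal axis, whiskers 1 standard error) of each S100 gene in the 3 comparisons, filled where FDR is below 0.05 and FC at least 2, with dashed lines at a log2 change of 1 either way. *S100a8* and *S100a9* have the widest whiskers (standard errors 0.893 to 0.974), and *S100a4* has the largest rise on day 1 (2.56).

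*S100a8* and *S100a9*, the calprotectin subunits, differed more between hearts of one group than any other member. *S100a8* was at 10.3, 21.2, 0.776 and 0.335 CPM in sham hearts 1 to 4, at 16.4, 36.2, 8.89 and 15.3 CPM in day 1 AMI, and at 1.42, 0.772, 1.25 and 11.8 CPM in day 7 AMI. Sham hearts 1 and 2 thus lay within the range of day 1 AMI, whereas sham hearts 3 and 4 lay below all of it, and day 7 AMI heart 4 stood apart from the 3 others. *S100a9* was at 10.7, 19.5, 0.824 and 0.335 CPM in sham, at 15.8, 35.1, 8.47 and 14.5 CPM in day 1 AMI, and at 1.23, 0.579, 2.06 and 10.1 CPM in day 7 AMI. The same hearts were high for both genes, and their log2 CPM followed each other over the 12 hearts, which share groups and libraries (Pearson r 0.993, as a description). In TPM, *S100a8* exceeded *S100a9* by a ratio of 1.05 to 1.22 in sham and 1.16 to 1.19 in day 1 AMI, and the ratio spread from 0.676 to 1.49 in day 7 AMI, where 3 of the 4 hearts held at most 56 counts of either gene.

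Against sham, *S100a8* differed by 2.33-fold on day 1 AMI (log2 1.22, SE 0.92, edgeR FDR = 0.308) and *S100a9* by the same fold (log2 1.22, SE 0.89, FDR = 0.291), less than the spread between sham hearts. From day 1 to day 7 *S100a9* fell by 2.39 on the log2 scale (SE 0.94, FDR = 0.0495) and was called, with overlapping groups, and *S100a8* differed by −2.32 (SE 0.97, FDR = 0.0617), not called. *S100a8* was called lower as well without the filter (log2 −2.34, FDR = 0.0222), on the 2 groups alone (−2.34, FDR = 0.0222), with an erythroid score as covariate (−3.18, FDR = 0.00064) and without sham heart 2, 3 or 4 (FDR = 0.0433, 0.046 and 0.0382). The call of *S100a9* sat at the threshold and was lost without any one of 7 libraries, among them day 1 AMI heart 2 (log2 −1.88, FDR = 0.135). Without day 7 AMI heart 4, both genes were called lower on day 7 than on day 1, at −4.05 for *S100a8* (FDR = 0.00732) and −3.83 for *S100a9* (FDR = 0.00931). Day 7 AMI differed from sham by −1.10 for *S100a8* (SE 0.97, FDR = 0.347) and −1.17 for *S100a9* (SE 0.95, FDR = 0.304), and without day 7 AMI heart 4 by −2.82 (FDR = 0.0324) and −2.61 (FDR = 0.0433). The direction against sham turned in other fits: the differences were 0.93 and 0.78 with the erythroid covariate (FDR = 0.266 and 0.345), 0.0556 and 0.025 on log2(TPM + 0.1) (limma FDR = 0.97 and 0.986), and 2.78 and 2.59 without sham hearts 1 and 2 (FDR = 0.089 and 0.0916).

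Summed neutrophil transcripts were highest on day 1, as were those of the pair, and erythroid and granule transcripts were not. The 14 neutrophil markers, none of them an S100 gene, summed to 63.7, 117, 39.3 and 39.5 CPM in sham hearts 1 to 4, to 120, 181, 74.2 and 104 CPM in day 1 AMI, and to 42.9, 33, 33.9 and 54.3 CPM in day 7 AMI. Within sham, the hearts with most *S100a8* were those with most neutrophil and most erythroid transcripts. The 7 erythroid genes summed to 420 to 649 CPM in day 1 AMI and 241 to 970 CPM in day 7 AMI, against 491 to 4464 CPM in sham, and 4 of the 6 tested were called lower on day 1 than in sham (median log2 change of the list −1.75). In day 7 AMI heart 4, the 7 genes of neutrophil granules summed to 15.6 CPM, against 0.295 to 1.11 CPM in the other 3 hearts of that group, 0.327 to 1.46 CPM in day 1 AMI and 0.0485 to 4.93 CPM in sham. *Ngp*, the 1 granule gene that passed the filter, had a mean of 0.0158 ± 0.0315 CPM in day 1 AMI against 1.1 ± 1.41 CPM in sham and was called lower (edgeR FDR = 0.0377), with overlapping groups. Of the granule genes, *Mpo*, *Elane* and *Ctsg* were at 0 in all sham hearts, and *Ctsg* also in all day 1 AMI hearts. Of the 13 neutrophil markers tested, 9 were called higher on day 1 than in sham with no overlap between groups, and 4 (*Retnlg*, *Mmp8*, *Hdc* and *G0s2*) overlapped and were not called, as were *S100a8* and *S100a9*. With an erythroid score as covariate *S100a8* was called higher on day 1, by 4.11 on the log2 scale (edgeR FDR = 0.000852), as was *S100a9*, by 3.95 (FDR = 0.000991). In a comparison added after the data were seen, without sham hearts 1 and 2, the differences were 5.11 (FDR = 0.00791) and 4.99 (FDR = 0.00652), against the 2 sham hearts with least *S100a8*. Sham hearts 3 and 4 held only 16 and 7 counts of *S100a8* and 17 and 7 counts of *S100a9*. Without sham heart 2 alone the differences were 2.36 (FDR = 0.0775) and 2.25 (FDR = 0.0817). The part of blood left in the vessels in these values was not tested further.

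**Figure D3:**
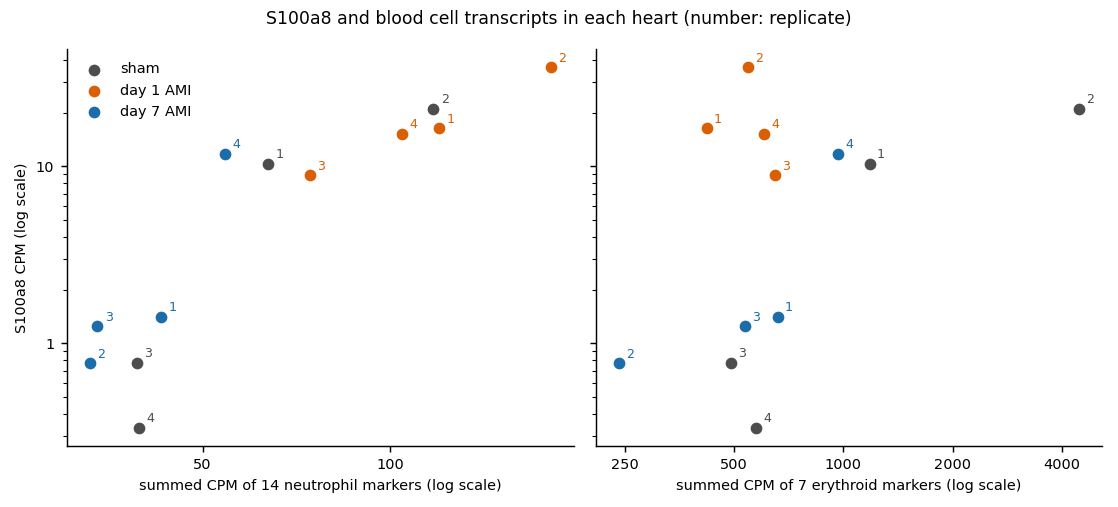
*S100a8* CPM (vertical axis, log scale) against the summed CPM of 14 neutrophil markers (left) and of 7 erythroid markers (right; both log scales), 1 point per heart with its replicate number. Sham hearts 1 and 2 sit at 10.3 and 21.2 CPM of *S100a8*, beside the day 1 AMI hearts in the left panel, and day 7 AMI heart 4 at 11.8 CPM sits apart from its group. *G0s2* is among the 14 neutrophil markers and averages 52.3 CPM in sham.

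The genes whose log2 CPM was most like that of *S100a8* over the 12 hearts were *Cd177*, which encodes a neutrophil surface glycoprotein (r 0.956), *Hmgxb3* (r 0.944) and *Egln3*, a prolyl hydroxylase of the hypoxia pathway (r 0.942). The same 3 genes came first for *S100a9*, with r from 0.935 to 0.947.

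*S100a1*, the cardiomyocyte member, fell on both days in CPM scaled by TMM, and on day 1 alone in TPM. It was at 525, 465, 469 and 547 CPM in sham hearts 1 to 4, at 287, 296, 324 and 321 CPM in day 1 AMI, and at 299, 298, 391 and 296 CPM in day 7 AMI. In these values every heart after AMI lay below every sham heart, and day 7 AMI heart 3 stood above all other hearts after AMI. In TPM day 7 AMI heart 3, at 1460, was the highest of all 12 hearts, above the 1293 to 1427 TPM of sham, and the other 3 hearts of day 7 AMI lay below sham. The mean fell from 501 ± 40.8 CPM in sham to 307 ± 18.2 CPM in day 1 AMI, 1.63-fold lower (log2 −0.71, SE 0.10, edgeR FDR = 0.000144). In day 7 AMI it was 321 ± 46.4 CPM, 1.56-fold lower than in sham (log2 −0.64, SE 0.10, FDR = 8.96e-05), and day 7 differed from day 1 by 0.07 (SE 0.10, FDR = 0.621). The size of the fall, and on day 7 whether it passed the FDR, depended on the scaling. On log2(TPM + 1), tested with limma, the difference was −0.39 on day 1 (FDR = 0.00444) and −0.11 on day 7 (FDR = 0.319), and with library sizes alone it was −0.43 (FDR = 0.00192) and −0.24 (FDR = 0.0362). With library sizes alone the median of all genes also moved, to 0.26 on day 1 and 0.43 on day 7.

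Beside *S100a1*, 6 of 9 cardiomyocyte markers fell by the FDR on day 1 and 7 of 9 on day 7, with median log2 changes of −0.57 and −1.09. From day 1 to day 7 their median was −0.52, with 6 of 9 lower, against 0.07 for *S100a1*. All 4 genes fixed as cardiac partners of S100A1 also fell against sham on both days by the FDR in CPM scaled by TMM. *Atp2a2*, the calcium pump of the sarcoplasmic reticulum, was at −0.64 on day 1 (FDR = 0.00257) and −1.32 on day 7 (FDR = 2.79e-06), and *Pln*, its inhibitor phospholamban, at −0.86 (FDR = 0.00038) and −1.09 (FDR = 1.75e-05). *Ryr2*, the calcium release channel, and *Ttn*, the sarcomere spring titin, were at −0.68 and −0.59 on day 7. Across the alternative fits other than those leaving out 1 heart, these day 7 differences ranged from −0.70 to −0.16 and from −0.66 to −0.078. Those of *Atp2a2* and *Pln* on day 7 ranged from −1.35 to −0.77 and from −1.14 to −0.50. On day 1 *Ryr2* was at −0.34 (FDR = 0.019) with overlapping groups, and at 0.0165 on log2(TPM + 1) (limma FDR = 0.91), so that its direction there turned with the scaling. The count called lower was 0 of 4 on day 1 and 2 of 4 on day 7, and 0 of 4 on the TPM scale. The genes most like *S100a1* over the 12 hearts were *Bbs2* (r 0.976), *Gpx4*, a peroxidase that reduces lipid hydroperoxides (r 0.976), and *Klf9* (r 0.975). *S100a13*, which starts beside *S100a1* and serves in the release of proteins without a signal peptide, did not pass the test in any comparison, and its mean was 18.4 ± 2.46 CPM in sham, 18.8 ± 0.499 CPM on day 1 and 15 ± 3.78 CPM on day 7. Its differences from sham were 0.03 on day 1 (FDR = 0.91) and −0.29 on day 7 (FDR = 0.119, and 0.22 on log2(TPM + 1)). *Fgf1*, a growth factor exported with S100A13, was the only one of its 3 listed cargo genes to pass the filter and fell by 0.76 on day 7 (FDR = 7.31e-05). Across the alternative fits other than those leaving out 1 heart, this difference of *Fgf1* ranged from −0.86 to −0.028, so its size depended on the processing.

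**Figure D4:**
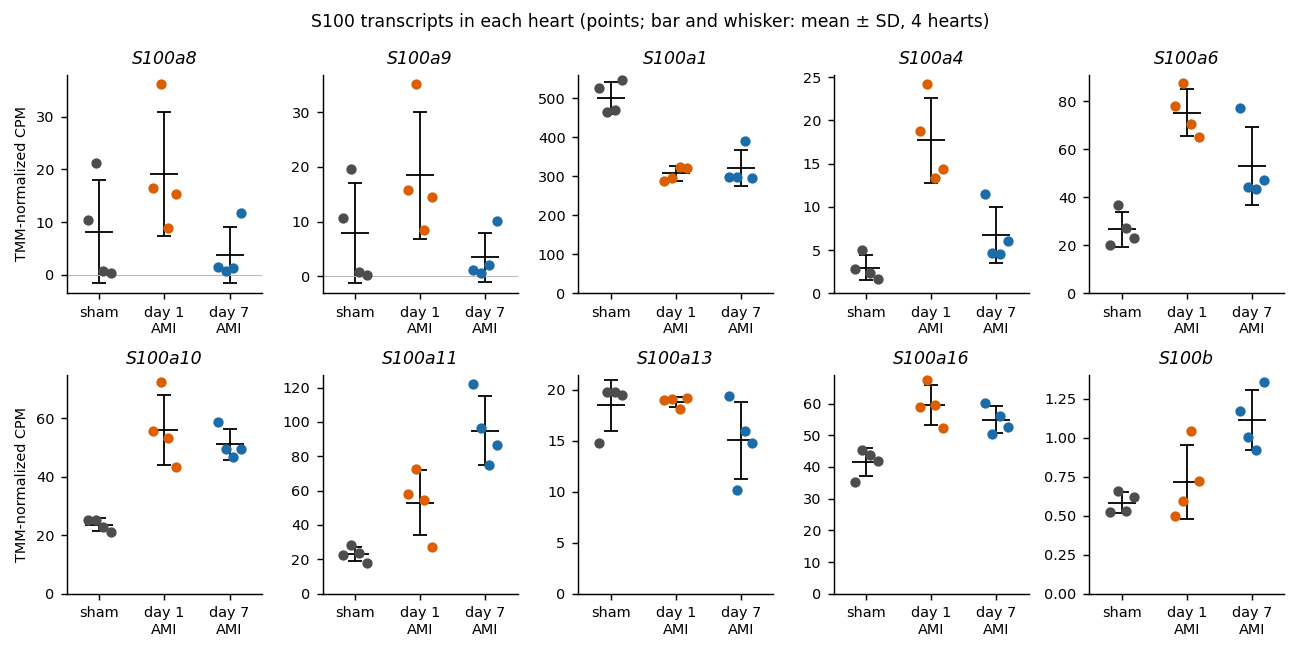
CPM scaled by TMM (vertical axes, 1 scale per gene) of the 10 S100 genes in each heart, with the mean and SD of 4 hearts per group. *S100a1* is below sham in every heart after AMI, *S100a4* is highest in day 1 AMI (13.4 to 24.2 CPM), *S100a11* in day 7 AMI (74.9 to 122 CPM), and *S100a8* and *S100a9* overlap between sham and day 1 AMI.

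*S100a4*, which encodes a protein of motile fibroblasts and leukocytes that binds non-muscle myosin, had the largest rise of the members on day 1 in the fit of all 12 libraries without covariate. With the erythroid covariate it rose by 3.03, less than *S100a8* and *S100a9* (4.11 and 3.95), and likewise without sham hearts 1 and 2 (3.13, against 5.11 and 4.99). It was at 2.87, 4.97, 2.38 and 1.67 CPM in sham hearts 1 to 4, at 18.8, 24.2, 13.4 and 14.4 CPM in day 1 AMI, and at 11.5, 4.71, 4.61 and 6.05 CPM in day 7 AMI. Day 1 AMI lay above both other groups without overlap, and day 7 AMI overlapped sham, with heart 1 the highest of its group. The rise on day 1 was 5.90-fold (log2 2.56, SE 0.35, edgeR FDR = 0.000105). From day 1 to day 7 it fell by 1.39 on the log2 scale (SE 0.32, FDR = 0.00275), and on day 7 it was still 2.25-fold above sham (log2 1.17, SE 0.35, FDR = 0.0101). The last call was lost without day 7 AMI heart 1 (log2 0.77, FDR = 0.0454) and without sham heart 4 (0.97, FDR = 0.0334), as the FC then missed 2. Fibroblast markers did not follow this course: they summed to 1167 to 1418 CPM in sham hearts, to 1805 to 2433 CPM on day 1 and to 8324 to 16569 CPM on day 7, and 7 of 9 were called higher on day 7 than on day 1. Monocyte and macrophage markers summed to 250 to 373, 497 to 710 and 728 to 1138 CPM. *Lyz2* had the highest mean of them, at 148, 280 and 506 CPM. From day 1 to day 7, 4 of these 10 rose by the FDR and 0 fell. Among those that rose on day 1 and did not differ between the days were *Ccr2* (3.03, 33.3 and 30 CPM), *Ly6c2* (0.459, 4.72 and 3.52 CPM) and *Fcgr1* (3.19, 14.9 and 14.5 CPM). The neutrophil markers summed to 39.3 to 117 CPM in sham, 74.2 to 181 CPM on day 1 and 33 to 54.3 CPM on day 7. Their sum was thus highest on day 1, as *S100a4* was, though sham and day 1 overlapped in the sum. Not every marker took this course. *G0s2* had a mean of 52.3 CPM in sham and 38.3 CPM on day 1, and *Retnlg* 2.23 and 1.58 CPM. The part of neutrophils or monocytes in the *S100a4* values was not tested. The genes most like *S100a4* over the 12 hearts were *Ube2z* (r 0.987), *Sbno2* (r 0.981) and *Plaur*, the urokinase receptor (r 0.981). Of the exon bases of *S100a4*, 51.7% also belong to *Gm42674*, a gene model on the same strand with 0 counts in all 12 libraries, so that these reads were assigned to *S100a4* or left out.

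*S100a6*, or calcyclin, and *S100a10*, the partner of annexin A2 in a complex at the cell membrane, rose on day 1 and stayed above sham. *S100a6* was at 20, 36.7, 27.1 and 23.1 CPM in sham, at 77.8, 87.6, 70.4 and 65.1 CPM in day 1 AMI, and at 77.2, 44.2, 43.5 and 47.2 CPM in day 7 AMI. All hearts after AMI lay above all sham hearts, and day 7 AMI heart 1 lay among the day 1 AMI hearts. The rise was 2.81-fold on day 1 (log2 1.49, SE 0.20, FDR = 0.000109) and 1.98-fold on day 7 (log2 0.99, SE 0.20, FDR = 0.000778), and the decline between the days was 0.50 on the log2 scale at FDR = 0.0498, which did not pass with library sizes alone (−0.375, FDR = 0.177) or on log2(TPM + 1) (−0.30, limma FDR = 0.302). *S100a10* was at 25.3, 25.3, 22.9 and 21 CPM in sham, at 55.5, 72.3, 53.1 and 43.2 CPM in day 1 AMI, and at 58.6, 49.4, 46.6 and 49.4 CPM in day 7 AMI. Sham lay below both other groups, which overlapped. Its log2 changes were 1.24 on day 1 (SE 0.14, FDR = 2.7e-05) and 1.11 on day 7 (SE 0.13, FDR = 8.72e-06).

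*S100a11*, a binding partner of annexin A1, was the one member of the 10 that rose from day 1 to day 7. It was at 22.5, 28.4, 23.7 and 18 CPM in sham, at 57.9, 72.5, 54.6 and 27.1 CPM in day 1 AMI, and at 122, 96.2, 74.9 and 86.5 CPM in day 7 AMI. Day 1 AMI heart 4 lay within the sham range, and all day 7 AMI hearts lay above all others. The log2 change was 1.19 on day 1 (SE 0.24, FDR = 0.00156) and 2.04, or 4.10-fold, on day 7 (SE 0.25, FDR = 8.47e-06). The difference between the days was 0.84 (SE 0.24, FDR = 0.00942), under the FC of 2, and 1.11 on log2(TPM + 1) with limma (FDR = 0.00422). Of all stretches of 75 bases in its transcripts, 37.8% also occur in 2 processed pseudogenes, which held 0 to 3 counts in any library.

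*S100a16*, a widely expressed member of uncertain function, changed less. Its mean was 41.5 ± 4.36 CPM in sham, against 59.5 ± 6.27 on day 1 and 54.9 ± 4.27 on day 7, and sham did not overlap either. The log2 changes were 0.52 on day 1 (SE 0.098, FDR = 0.000952) and 0.40 on day 7 (SE 0.098, FDR = 0.00274). *S100b* held 10 to 16 counts per library in sham, 13 to 32 on day 1 and 25 to 40 on day 7, or 0.583 ± 0.0663, 0.716 ± 0.239 and 1.11 ± 0.194 CPM. Day 7 AMI lay above sham without overlap (log2 0.93, SE 0.28, FDR = 0.0107), under the FC of 2, and day 1 AMI overlapped both. Neither Schwann cell markers, at 10.6 to 12.9 CPM in sham and 7.58 to 12.1 CPM in day 7 AMI, nor adipocyte markers, at 0.886 to 5.25 and 0.70 to 4.25 CPM, held a gene that rose by the FDR on day 7. *Zbtb34*, *BC030867* and *Hoxa2* were most like *S100b* over the 12 hearts (r 0.925, 0.921 and 0.917).

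In all, 4 members lay above sham without overlap on day 1 and 1 below (19.6% and 17.1% of all genes tested), and 5 above and 1 below on day 7 (28.2% and 24.7%). Between the days *S100a11* lay above and *S100a4* below without overlap (23.5% and 21% of all genes). Along chromosome 3, *S100a1* and *S100a13* stand back to back, one fallen on both days in CPM scaled by TMM (on day 7 not past the test in TPM) and the other not past the test, and *S100a6*, which rose on both days, stands between *S100a4* and *S100a8*.

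**Figure D5:**
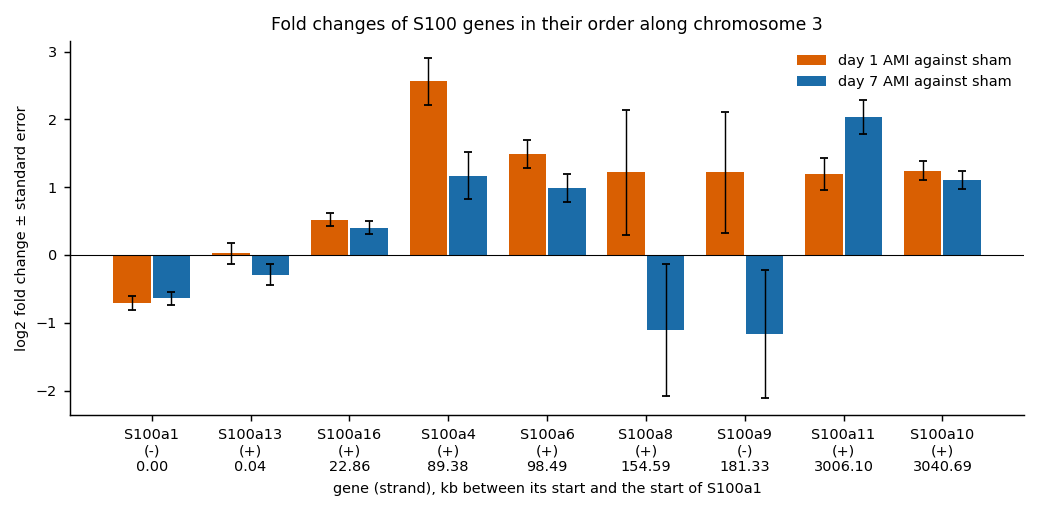
Log2 fold change against sham (vertical axis, error bars 1 standard error) on day 1 AMI and day 7 AMI for the 9 S100 genes of chromosome 3, in their order, with strand and the distance in kb between their start and that of *S100a1* under each name. *S100a1* is negative on both days (−0.71 and −0.64), *S100a13* beside it is near 0 on day 1 (0.03), and bars of *S100a8* and *S100a9* turn from 1.22 on day 1 to −1.10 and −1.17 on day 7 with error bars of 0.893 to 0.974.

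Receptors and partners of S100 proteins were given as lists. Of 8 receptor genes, 2 were called higher on day 1, 3 on day 7 and 1 on day 7 against day 1, and 0 lower in any of them, where edgeR gave 2 lower at an unadjusted p under 0.05 each time. *Tlr4*, the receptor through which calprotectin signals, was at 0.86 on day 1 (FDR = 0.000158) and 0.85 on day 7 (FDR = 5.01e-05), below the FC of 2. *Mcam*, another receptor of S100A8 and S100A9, was at 1.12 on day 1 (FDR = 0.000575) and 1.78 on day 7 (FDR = 4.28e-06). *Bsg*, or basigin, fell by 0.64 and 0.94 (FDR = 7.84e-05 and 5.96e-07). *Ager*, which encodes the receptor RAGE, held 2 to 12 counts per library in sham and 19 to 35 in day 7 AMI, and rose by 1.74 from day 1 to day 7 (FDR = 0.00536). Of 10 annexins and other binding partners, 2 were called higher on day 1, 4 on day 7 and 1 on day 7 against day 1, and 0 lower, where 2, 3 and 4 were lower at an unadjusted p under 0.05. With DESeq2 0 genes of either list were called lower on day 1 or between the days. *Anxa2*, the partner of S100A10, was at 1.76 on day 1 (FDR = 3.31e-05) and 1.66 on day 7 (FDR = 7.11e-06), beside 1.24 and 1.11 for *S100a10*. *Anxa1*, the partner of S100A11, was at 1.89 on day 7 against sham (FDR = 6.93e-08) and rose by 1.33 from day 1 to day 7 (FDR = 2.43e-06), beside 0.84 for *S100a11*. *Myh9*, the non-muscle myosin that S100A4 binds, rose by 1.13 on day 1 (FDR = 0.000471). Not all partners rose: by the FDR 2 of these 10 fell on day 1, 3 on day 7 against sham and 4 from day 1 to day 7. *Anxa6* was among the last, at −0.68 (FDR = 1.76e-05).

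Of the other S100 genes of the mouse, 7 (*S100a2*, *S100a3*, *S100a5*, *S100a7a*, *S100a14*, *S100g* and *S100z*) were listed and did not pass the filter on low counts. *S100a7a* reached 18 counts in a library and each of the others at most 4. *S100g* and *S100z* had 0 counts in all 12 libraries, where 3 counts correspond to 0.0895 to 0.156 CPM, for counting error only.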

How the data were processed

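Paired-end reads of random-primed cDNA from whole hearts, biological replicates per the study, were trimmed with Cutadapt and aligned with STAR (2.4.0j per the submitters' processing notes) to GRCm38. The authors deposited raw gene counts, whose counting tool and strand setting are not given in the sources used here, and TPM values from RSEM. Groups came from the sample labels. Genes were filtered by filterByExpr (15306 kept of 53801), scaled by TMM and tested in one 3-group fit with edgeR 4.0.16 (glmQLFit, glmQLFTest) in R 4.3.3, called at FDR below 0.05 and FC of at least 2. DESeq2 1.42.0, limma 3.58.1 on log2(TPM + 1) or log2(TPM + 0.1), other scalings and filters, an erythroid covariate (the mean log2 CPM of the erythroid list) and leaving out each heart were alternatives. The scripts were tested on simulated counts. The smallest chi-square per degree of freedom between replicates was 8.84, so none was a duplicate. Named genes were the 10 members, at most 4 genes per partner list by smallest FDR in a comparison, and the 3 genes with the highest r. Members and lists were chosen with earlier results of these data known.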

Additional observations from a re-analysis of the deposited data

Results flagged for a closer look

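Among 30 sets of 4 hearts (10 genes in 3 groups), 6 had a heart set apart by Dixon's test. Chance alone sets apart about 1 in 20 sets of independent values with a normal spread. The genes share hearts, and *S100a8* and *S100a9* followed each other, so the 6 cannot be weighed against that rate. In day 7 AMI, heart 4 was high for *S100a8* (11.8 CPM, the others 0.772 to 1.42) and for *S100a9* (10.1 CPM, the others 0.579 to 2.06), heart 3 for *S100a1* (391 CPM, the others 296 to 299) and heart 1 for *S100a6* (77.2 CPM, the others 43.5 to 47.2). *S100a13* was low in sham heart 1 (14.8 CPM, the others 19.5 to 19.8) and in day 1 AMI heart 3 (18 CPM, the others 19 to 19.1).

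Day 7 AMI differed from day 1 AMI by the edgeR FDR for 4 members. With the same sham hearts as reference for both days, this is also the difference between the 2 changes against sham. Without sham hearts of each day, it cannot tell the effect of the infarct from the time since the operation. The log2 difference was −2.39 for *S100a9*, −1.39 for *S100a4*, −0.5 for *S100a6* and 0.84 for *S100a11*. That of *S100a9* (FDR = 0.0495) and that of *S100a6* (FDR = 0.0498) lay at the threshold, and both missed it with library sizes alone (−2.24, FDR = 0.0694, and −0.375, FDR = 0.177).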

How the results depend on the processing

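With day 1 AMI against sham, the 4 members called higher and 0 called lower gave 4 to 6 and 0 to 1 under the alternatives run, the 1 being *S100a1* without an FC minimum. With day 7 AMI against day 1 AMI, 2 members called lower became 1 with DESeq2, with library sizes alone, in the 3 limma fits and in DESeq2 without independent filtering (added after the data were seen), and 1 to 3 without one heart. They became 3, *S100a8* being the third, without the filter, on the 2 groups alone, with the erythroid covariate and without sham hearts 1 and 2, and 3 with *S100a6* without an FC minimum. The 0 called higher became 1 in the limma fits and without an FC minimum, and 0 to 1 without one heart. With day 7 AMI against sham, 3 called higher became 5 with library sizes alone, on log2(TPM + 1) with and without the filter and with the erythroid covariate, and 6 on log2(TPM + 0.1) and without an FC minimum, and 2 to 5 without one heart. The 0 called lower became 1 without an FC minimum and 0 to 2 without one heart.

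Signs turned for small differences. From day 1 to day 7, *S100a16* was at 0.011 with library sizes alone and at 0.28, 0.29 and 0.28 in the limma fits, *S100a10* at 0.10, 0.11 and 0.10, *Ttn* at 0.0486, 0.049 and 0.0486 and *Fgf1* at 0.0256, 0.0258 and 0.0256 there. Without one heart, *S100a10* was at −0.244 to 0.00909 and *S100a1* at −0.0434 to 0.102 between the days, *S100a13* at −0.0665 to 0.0618 on day 1 and *S100a8* at −2.82 to 0.0285 on day 7 against sham. On day 1 *Ryr2* was at 0.0165, 0.0166 and 0.0165 in the limma fits. On day 7 against sham, *S100a13* was at 0.10 with library sizes alone and 0.22 in the limma fits, *S100a8* at 0.0556 and *S100a9* at 0.025 on log2(TPM + 0.1), and at 0.93 and 0.78 with the erythroid covariate. Without sham hearts 1 and 2 (added after the data were seen), *S100a13* was at −0.0602 on day 1, and *S100a8* and *S100a9* at 2.78 and 2.59 on day 7. The cause of these shifts was not tested. Higher genes made up 72.3% of all calls on day 1 and 89% with library sizes alone.

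Replicate numbers were not taken as pairs in the main fit, since no label ties a number to a shared animal or day. Of 12 same-numbered pairs, 4 correlated above 0.1 (r −0.244 to 0.229). Pairs of unlike number were not computed, so these values cannot decide whether the numbers pair the samples. With the replicate block, 1 member was called lower between the days, *S100a9* being at −2.22 (FDR = 0.0809).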
